A study of Mus musculus with 8 samples.

Results

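The interval between 75 and 90 min of LPS stimulation in RAW264.7 macrophages was examined across 10830 of the 23143 genes in the count table, those with at least 50 reads in the 75 or the 90 min library. It involves 2 of the 8 libraries of the series. Within these 15 min, transcripts of several secreted inflammatory mediators were higher at 90 min, namely Tnf (1.82-fold), Il1b (2.06-fold), Il1a (2.01-fold), Il6 (4.26-fold) and Csf3 (2.72-fold), while most measured members of the cytokine lists had log2 ratios within 0.5. Transcripts of the immediate early transcription factors Nr4a1 and Jun were at 0.341 and 0.429 of their 75 min level. Of all genes compared, 97.8% had a log2 ratio between -0.5 and 0.5.

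RAW264.7 is a mouse macrophage-like cell line. RNA was sequenced from cells treated with 100 ng/ml LPS, a component of the outer membrane of Gram-negative bacteria, for 15 to 90 min in steps of 15 min and for 120 min, and from untreated cells (0 min), with 1 library per time point. Nothing in the labels or the methods says whether the time points came from separate cultures, and no time point was repeated, so the ratios compare 2 libraries and have no replicate check. Intervals given below are exact conditional binomial 95% intervals and cover counting error only. The labels name the RNA fraction as cytoplasmic and the molecule as total RNA. Malat1, a long RNA retained in the nucleus, had 258260 reads at 75 min and 339318 reads at 90 min.

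LPS is sensed by TLR4, which activates NF-kB and MAP kinases. A first wave of target genes needs no new protein synthesis and includes Tnf, Jun, Fosb and the feedback inhibitors Nfkbia and Tnfaip3. Genes of the next wave, such as Il6 and many chemokine and interferon response genes, need chromatin remodelling, newly made factors or secreted interferon, and many transcripts of both waves carry AU-rich elements that shorten their life.

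The 75 and 90 min libraries were the shallowest of the 8, with 100250892 and 105745005 counted reads against 112983092 to 159077286 in the others. Rn45s, the ribosomal RNA precursor, took 20.5% of the reads at 75 min, the highest share of all libraries, and 15.8% at 90 min, while the other libraries ranged from 8.18% to 16.6%. Reads were scaled by median-of-ratios size factors from all 8 libraries (0.71 at 75 min and 0.788 at 90 min), and the scaled values are called normalized counts. Leaving Rn45s out of a scaling by total counts gave 149 genes above and 88 below the limit used here. Of the macrophage markers, 8 of 8 in the table were measured and had log2 ratios from -0.21 to 0.16, and Lyz2 had 431800 normalized counts at 75 min and 429300 at 90 min. The summed reads of the marker lists of other cell types were 74 and 71 for T cells, 5 and 8 for B cells, 18 and 18 for fibroblasts, 0 and 1 for epithelial cells and 1 and 0 for erythroid cells. Of the T cell markers only Lck reached 50 reads.

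With a log2 ratio of 0.5 (1.41-fold) as the limit, 156 genes (1.44%) were higher and 79 genes (0.729%) were lower at 90 min. In RNA from whole cultures, a change in the share of cells that make a transcript and a change in RNA per cell cannot be told apart. A log2 ratio of 1 was exceeded by 15 genes upward and by 3 genes downward. Scaling by total counts, which shifts all log2 ratios upward by 0.07, gave 217 and 48 genes. The interval of the ratio lay outside 0 for 144 of the 156 genes and for 75 of the 79. Lowly counted genes crossed the limit most often: below a mean of 100 normalized counts, 50 of 382 genes were higher and 20 were lower, whereas above a mean of 10000, 16 of 2500 were higher and 1 was lower. Of the genes higher at 90 min, 42 had fewer than 50 reads at 75 min, and 16 of the lower genes had fewer than 50 at 90 min. At the edge of the limit, Txlnb was just past it and Slc11a2 just short of it, both with a log2 ratio of 0.50, and on the other side Ift81 was just past it and Hip1r just short of it, both with -0.50.

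**Figure D1:**
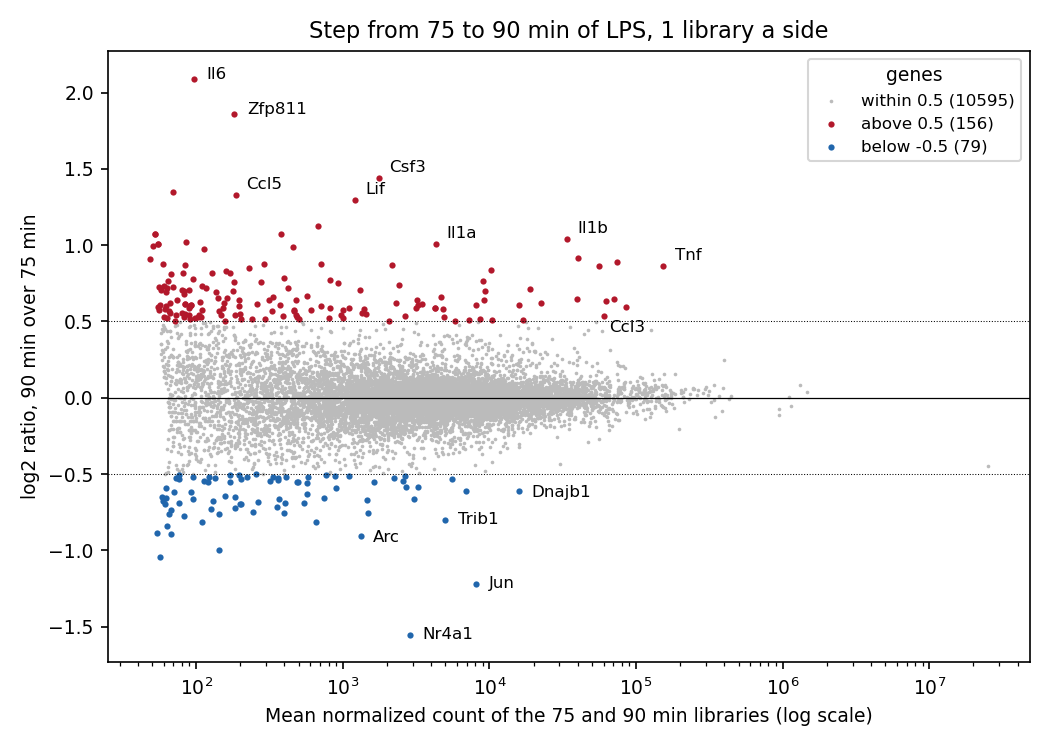
Log2 ratio of the 90 min over the 75 min library for each of the 10830 genes (vertical axis) against the mean normalized count of both libraries (horizontal axis, log scale). The dotted lines mark 0.5 and -0.5, beyond which 156 genes lie above (red) and 79 below (blue). The grey cloud of the remaining 10595 genes narrows to the right, where Tnf and Il1b stand above it.

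Tnf, the founding inflammatory cytokine of its family, had the largest gain in normalized counts of any gene. In the order of the time points from 0 to 120 min, its normalized counts were 8922, 29550, 188900, 270600, 84750, 108200, 196900 and 359700. It thus stood high at 45 min, was low again at 60 min and was higher from there in each later library, with a 90 to 75 min ratio of 1.82 (1.80 to 1.84). A stricter rule modelled on that of the study used edgeR instead of the study's DESeq, with a dispersion fitted blindly over the libraries. It left 13 higher and 4 lower genes, and Tnf, Cxcl2, Ccl3, Ccl4, Nfkbia and Ptgs2 were not among them. The 4 other measured TNF family ligands had log2 ratios between -0.25 and 0.20, so Tnf was the 1 of 5 past the limit, and 12 of the 17 ligands in the table had too few reads. Per kilobase of transcript, Tnf had 66030 normalized counts at 75 min and 120100 at 90 min, against 16260 and 33410 for Il1b and 1445 and 2906 for Il1a.

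Il1b and Il1a encode the pro-inflammatory interleukins IL-1β and IL-1α. Il1b had 38.5, 55.2, 654, 1938, 9961, 22040, 45310 and 108100 normalized counts over the 8 time points, a 90 to 75 min ratio of 2.06 (2.02 to 2.10). Il1a had 4.28, 4.76, 88.4, 462, 1506, 2853, 5737 and 13500, a ratio of 2.01 (1.91 to 2.12). In contrast to Tnf, both were higher in each library than in the one before. Gm14047, a non-coding gene that overlaps the annotated Il1b gene on chromosome 2, had 59.1 and 104 normalized counts at 75 and 90 min. According to the methods, reads matching transcripts of both genes were discarded. The strand used in counting is not given in the sources used here, so the strand of the reads kept in the overlap is not known.

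Of the 26 interleukin and interferon genes in the table, 16 were measured, and 6 were higher, none was lower and the median log2 ratio was 0.33, against -0.0034 over all genes compared. Of the 6, Il6, Il23a and Il27 reached 50 reads only in the 90 min library, where they were higher. Of the 12 members with 50 reads in both libraries, 3 were higher, against 1.07% of all such genes, and their median was 0.25. Il6, an interleukin that drives the acute phase response, had 0.856, 0, 3.28, 1.13, 11.6, 36.6, 156 and 974 normalized counts, which rest on 26 reads at 75 min and 123 at 90 min. Its ratio of 4.26 (2.78 to 6.79) was the largest of all genes compared, and its low read number is reflected in the wide interval. Lif, a cytokine of the IL-6 family, had 3.42, 2.85, 34.4, 73.4, 258, 697, 1709 and 10310 normalized counts and a ratio of 2.45 (2.21 to 2.72). The remaining 2 genes past the limit, chosen after seeing their values, encode interleukin subunits at low counts. Il23a had 39.4 normalized counts at 75 min and 100 at 90 min, but also 72.3 at 45 min and 86.7 at 120 min, so its values did not follow 1 direction. Il27 had 56.3 and 114, and 483 at 120 min. The 10 other measured members lay between -0.27 (Il15) and 0.42 (Ifnb1, the type I interferon made first after TLR4 engagement).

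Among colony-stimulating and growth factors, 2 of 7 measured members were higher, against 1.44% of all genes compared. None was lower, and the median log2 ratio was -0.01. Csf3, the granulocyte colony-stimulating factor, had 2.57, 1.90, 13.9, 120, 508, 946, 2571 and 9634 normalized counts and a 90 to 75 min ratio of 2.72 (2.49 to 2.97). Pdgfb, a platelet-derived growth factor subunit, had 17640 and 27100 normalized counts at 75 and 90 min (1.54-fold). Csf1, the macrophage colony-stimulating factor, had a log2 ratio of -0.13.

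**Figure D2:**
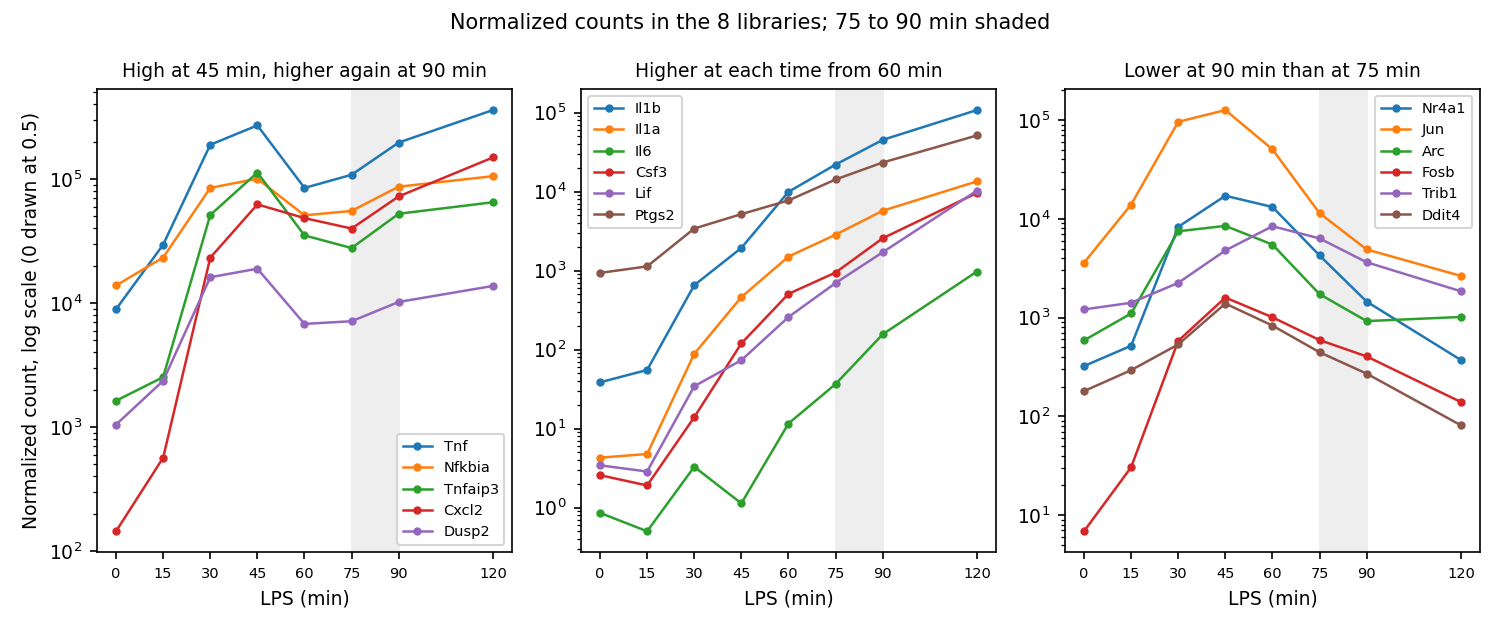
Normalized counts (vertical axes, log scale, 0 drawn at 0.5) of 17 genes in the 8 libraries by minutes of LPS, with the 75 to 90 min interval shaded and each point 1 library. On the left Tnf, Nfkbia, Tnfaip3, Cxcl2 and Dusp2 were high at 45 min and higher again at 90 than at 75 min. In the middle Il1b, Il1a, Il6, Csf3, Lif and Ptgs2 were higher in each library from 60 min on, and on the right Nr4a1, Jun, Arc, Fosb, Trib1 and Ddit4 were lower at 90 than at 75 min.

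Chemokines were the other secreted mediators with many members past the limit. Over all genes compared, 1.44% were higher and 0.729% lower. Of 8 measured CC chemokines, 6 were higher and none lower, with a median log2 ratio of 0.59. Of 5 measured CXC chemokines, 3 were higher and none lower, with a median of 0.83. With 50 reads required in both libraries, 6 of 7 CC chemokines (median 0.60) and 2 of 4 CXC chemokines (median 0.57) were higher. Cxcl11 was not among these, since it reached 50 reads only at 90 min. Cxcl2, which attracts neutrophils, had 145, 566, 23210, 62410, 48400, 39880, 72440 and 149200 normalized counts and a ratio of 1.82 (1.79 to 1.84). Like Tnf, it was lower at 75 than at 45 min, but unlike Tnf it was above its 45 min value at 90 min. Ccl3 and Ccl4, which attract monocytes and T cells, had 68120 and 48560 normalized counts at 75 min and 103000 and 75270 at 90 min. Their annotated spans overlap by 754 bases on chromosome 11. According to the methods, reads matching transcripts of both genes were discarded, so their counts may leave out shared stretches. Ccl5, which attracts T cells, had 106 and 265 normalized counts (2.51-fold, 1.92 to 3.32). Ccl22, which attracts regulatory T cells through CCR4, had 245 and 517 (2.11-fold, 1.76 to 2.53), Ccl2, which attracts monocytes, 877 and 1318, and Ccl9 49650 and 71880. Cxcl10, an interferon-inducible ligand of CXCR3, had 7396 and 13190 normalized counts (1.78-fold, 1.72 to 1.84). Its neighbour Cxcl11, which RefSeq lists as non-coding in the reference strain, had 33.8 and 71.1, from 24 and 56 reads.

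Some genes past the limit lay within 100 kb of each other, though the share with such a neighbour was near that of other genes. Of the 234 genes past the limit that have a position, 22 (9.40%) had another gene past the limit within 100 kb, and so did 807 of 10563 (7.64%) of the genes within the limit. The 22 formed 18 pairs, 17 of them of higher genes and 1 of lower genes. Those with a cytokine gene were, on chromosome 11, Ccl5, Ccl9, the non-coding E230016K23Rik, Ccl3 and Ccl4 (chr11:83525778-83664683), on chromosome 2 Il1a, Il1b and Gm14047 (chr2:129299609-129375733), and on chromosome 5 Cxcl10 and Cxcl11 (chr5:92346638-92363296). Irg1 on chromosome 14 had the non-coding 4933432I03Rik beside it. Members of these clusters arose by gene duplication or overlap each other, so the pairs are not independent.

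Effector genes of the later response were higher past the limit in 7 of 24 measured cases, against 1.44% of all genes compared. None was lower, and the median log2 ratio was 0.23. Irg1 (Acod1), which makes the antibacterial metabolite itaconate, had 1350, 1186, 3162, 10730, 33590, 52350, 97100 and 257600 normalized counts and a ratio of 1.85 (1.83 to 1.88). Ptgs2, the inducible cyclooxygenase of prostaglandin synthesis, had 936, 1132, 3413, 5195, 7747, 14280, 23420 and 51510 (1.64-fold, 1.60 to 1.68), and Ptges, which acts after it in the same pathway, 400 and 578 at 75 and 90 min. Both enzymes were at their highest at 120 min. Edn1, the precursor of the vasoconstrictor endothelin-1, had 76.0 and 150 normalized counts (1.97-fold, 1.42 to 2.77). Cd80, a co-stimulatory ligand for T cells, was close to the limit with 1707 and 2424 normalized counts. The anti-apoptotic Bcl2a1b and Bcl2a1d had log2 ratios of 0.59 and 0.55, but are near-identical copies. Reads matching both were discarded, so their counts rest on the reads assigned to 1 copy. Outside the lists, the largest ratios at a mean of at least 100 normalized counts belonged to Zfp811, a zinc finger gene (78.9 and 286 normalized counts, 3.62-fold, 2.69 to 4.94), Abtb2, an ankyrin repeat and BTB domain gene (428 and 936, 2.19-fold, 1.91 to 2.51), and Cd69, a lymphocyte and macrophage activation marker (304 and 604, 1.99-fold, 1.69 to 2.34). Cd69 had 571 at 120 min, slightly below its 90 min value.

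Of the interferon-stimulated genes, 4 of 24 measured were higher, against 1.44% of all genes compared. None was lower, and the median log2 ratio was 0.11. Isg15, a ubiquitin-like modifier, had 206 and 378 normalized counts (1.84-fold, 1.50 to 2.26) and 1242 at 120 min. Ifih1, a cytosolic sensor of double-stranded RNA, had 487 and 726, Oasl1, a 2'-5' oligoadenylate synthetase-like protein, 3985 and 5741, and Cd274, the checkpoint ligand PD-L1, 560 and 849. The other 20 members lay between -0.44 (Igtp) and 0.48 (Rsad2).

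**Figure D3:**
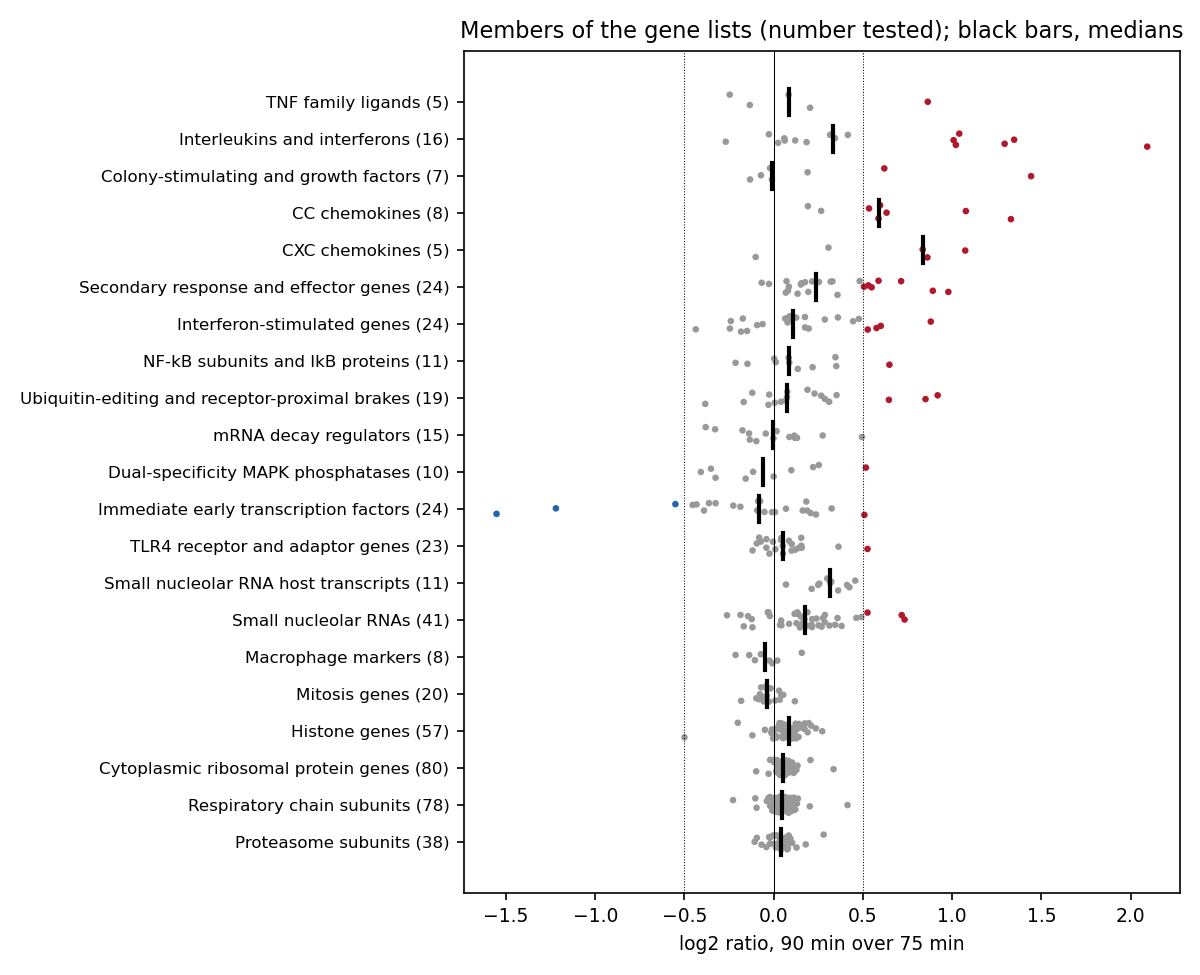
Log2 ratio of the 90 min over the 75 min library (horizontal axis) for the measured members of each gene list, with the number measured in brackets. Each point is a gene, red above 0.5, blue below -0.5 and grey between, and the black bar is the list's median. CC chemokines (0.59) and CXC chemokines (0.83, which falls to 0.57 without genes under 50 reads in either library) have the highest medians, and the lowest points are Nr4a1 and Jun among the immediate early transcription factors.

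The negative regulators of the pathway were mostly within the limit, with 3 exceptions among the receptor-proximal inhibitors, 1 among the IκB proteins and 1 among the dual-specificity phosphatases. Nfkbia, which encodes IκBα and holds NF-kB in the cytoplasm, had 13860, 23270, 84850, 100500, 50930, 55320, 86700 and 105400 normalized counts, a 90 to 75 min ratio of 1.57 (1.55 to 1.59). Tnfaip3, the ubiquitin-editing enzyme A20, had 1632, 2529, 51280, 112800, 35100, 27770, 52490 and 64960, a ratio of 1.89 (1.86 to 1.92). Both followed the course of Tnf, with a high value at 45 min and lower ones at 60 and 75 min. Unlike Tnf, Tnfaip3 was still below its 45 min value at 120 min. Nfkbia was the 1 of 11 NF-kB and IκB genes past the limit, where the median log2 ratio was 0.09 and Nfkbiz, an atypical nuclear IκB, was lowest at -0.21. Among the receptor-proximal inhibitors, 3 of 19 were higher, against 1.44% of all genes compared, and none lower. Besides Tnfaip3 these were Socs3, an inhibitor of cytokine receptor signalling (30990 and 48470 normalized counts, 1.56-fold, 1.54 to 1.59), and Cish, of the same family (163 and 294, 1.80-fold, 1.44 to 2.27). Of the 10 dual-specificity phosphatases that switch off MAP kinases, Dusp2 was higher with 7138 and 10210 normalized counts (1.43-fold, 1.38 to 1.48), the others lay between -0.41 (Dusp10) and 0.25 (Dusp5), and the median was -0.06. None of the 15 mRNA decay regulators was past the limit, although Zc3h12c, of the Regnase family of RNases, came near it at 0.49. Of the 23 genes of the TLR4 receptor and its adaptors, only the kinase Map3k8 was past it, with 663 and 955 normalized counts, and at 60 min it had 1026, above its 90 min value.

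An AU-rich nonamer, UUAUUUAUU, was searched in the annotated 3' UTRs on the transcript strand, overlapping matches included. It was present in 22 of 120 genes (18.3%) higher at 90 min, in 2 of 73 (2.74%) lower at 90 min and in 775 of 10273 (7.54%) of all measured genes with an mRNA accession and a 3' UTR. The shorter core AUUUA was present in 72.5%, 63.0% and 68.4%. With 50 reads required in both libraries, the nonamer was present in 19 of 92 higher (20.7%), 2 of 60 lower (3.33%) and 766 of 10149 (7.55%) of all such genes. Genes higher at 90 min also had shorter transcripts, with a median of 2488 bases against 3006 over all. Across all genes the median log2 ratio was 0.06 in the bin of shortest transcripts (534 genes) and -0.03 in that of the longest (534 genes), and with this trend removed 155 genes were higher and 74 lower. The windows below are the first nonamer of some of the genes described above, shown because these mediators and the inhibitor Nfkbia were higher at 90 min and hold the element, and of Prr12, a proline-rich nuclear protein gene lower at 90 min. They are in GENCODE vM21 transcripts (GRCm38), 5' to 3' on the strand given, with the nonamer in capitals.
Tnf (chr17:35199688-35199717, minus): uuugcacuuaUUAUUUAUUauuuauuuauu
Cxcl2 (chr5:90905316-90905345, plus): gagaguucacUUAUUUAUUuaucuauguau
Irg1 (chr14:103055748-103055777, plus): uucugaggaaUUAUUUAUUaacucugggaa
Ptgs2 (chr1:150105790-150105819, plus): cugaccauauUUAUUUAUUuaugugaagaa
Lif (chr11:4272039-4272068, plus): aaaggggccuUUAUUUAUUauuuaaaacuu
Nfkbia (chr12:55489607-55489636, minus): ggaccacguuUUAUUUAUUgugcuuuugau
Prr12 (chr7:45027990-45028019, minus): auuuuuaaucUUAUUUAUUguacauaccug
Tnf held 5 such nonamers and Cxcl2 held 4, Lif held 2, and the others shown held 1 each. Il1a, Il1b, Il6 and Csf3 held none, but had 3, 4, 6 and 6 AUUUA pentamers, while Ccl5 had no pentamer. Nr4a1 and Jun, lower at 90 min, had 3 and 4 pentamers and no nonamer.

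Promoters were searched for a κB-like motif (GGG, any 2 bases, TTTCC) on both strands from 250 bases before to 50 bases after each RefSeq start. This motif was chosen after the values were seen. Counted by gene, with a match in any of its promoters, it was present in 7 of 112 genes higher at 90 min (6.25%). It was present in 2 of 58 genes lower (3.45%) and in 191 of 8725 of all measured genes with a promoter (2.19%). Counted by single promoter, which is a different unit, it matched 1.63% of all promoters in the table. The looser motif with any 5 bases between GGG and CC, which contains the first motif, did not separate these sets of genes. It matched 64.3% of the higher, 63.8% of the lower and 71.4% of all measured genes. The matches upstream of the start in the genes described above are shown 5' to 3' on the strand of the gene (GRCm38.p6), with the motif or its reverse complement in capitals.
Il6 (chr5:30013060-30013089, plus): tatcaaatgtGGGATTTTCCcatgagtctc
Cxcl2 (chr5:90903792-90903821, plus): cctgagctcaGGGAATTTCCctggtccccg
Cxcl2 (chr5:90903811-90903840, plus): cctggtccccGGGCTTTTCCagacatcgtg
Nfkbia (chr12:55492657-55492686, minus): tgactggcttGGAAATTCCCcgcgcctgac
Tnfaip3 (chr10:19015411-19015432, minus): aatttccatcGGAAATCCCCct
Ccl9 (chr11:83578652-83578681, minus): tttgaactttGGAAAGCCCCaagtcacctt
The motifs began between 12 and 97 bases before the annotated start. These matches describe letters in the window, and binding was not measured.

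Immediate early transcription factors were the list with genes below the limit, 3 of 24 measured, against 0.729% of all genes compared. Of the 24, 1 was above the limit, and the median log2 ratio was -0.08. Nr4a1, an orphan nuclear receptor, had 322, 518, 8289, 17110, 13180, 4254, 1450 and 371 normalized counts over the 8 time points, a 90 to 75 min ratio of 0.341 (0.318 to 0.365). Jun, a subunit of the AP-1 factor, had 3585, 13950, 95940, 126300, 50510, 11400, 4892 and 2640, a ratio of 0.429 (0.413 to 0.446). Both were highest at 45 min and lower in each later library, and Jun ended below its unstimulated value. Fosb, an AP-1 partner of Jun, had 6.84, 30.4, 581, 1594, 1006, 591, 404 and 139 (0.683, 0.588 to 0.792). The 1 member above the limit was Egr2, a zinc finger factor, with 13900 and 19770 normalized counts (1.42-fold, 1.39 to 1.46), and Fos and Egr1, of the same first wave, had log2 ratios of 0.07 and -0.36.

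Several other transcripts lower at 90 min had also been high early. Arc, an early gene best known from neurons, had 587, 1099, 7475, 8478, 5483, 1726, 920 and 1014 normalized counts (0.533, 0.486 to 0.585), so that it reached its post-stimulation low at 90 min. Trib1, a pseudokinase that directs protein degradation, was highest later, at 60 min, and had 4779, 8412, 6328, 3630 and 1845 normalized counts in the last 5 libraries. Ddit4, an inhibitor of mTORC1, had 445 and 270 normalized counts at 75 and 90 min, Arid5a, an RNA-binding protein that stabilizes Il6 mRNA, 3739 and 2365, and Dnajb1, a heat shock co-chaperone, 19330 and 12680. These 3 were chosen after seeing their values. Dnajb1 was the gene with the most reads among those lower, and it met neither rule for an earlier rise given below.

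Further lower transcripts were in no library as much as 2-fold above their value in untreated cells. The uncharacterized C130050O18Rik had 3202, 3213, 2950, 2328, 1629, 834, 475 and 146 normalized counts (0.570, 0.499 to 0.649). Fam53b had 3395, 4072, 3541, 3725, 2815, 1859, 1103 and 943 (0.593, 0.544 to 0.647), and Plekhg5, a guanine nucleotide exchange factor, had 325, 366, 369, 394, 256, 190, 95.2 and 62.4 (0.501, 0.372 to 0.669). All 3 were lower in each library from 60 to 120 min. At lower counts, Aatk had 141 and 80.0 normalized counts at 75 and 90 min, Gm996 179 and 105, and Prr12 501 and 297. Plekhg5, Gm996 and Prr12 were highest at 45 min, Prr12 with 1122 normalized counts against 786 in untreated cells.

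The earlier libraries, none of which enters the 90 to 75 min ratio, were used to sort the measured genes by their course. Early peak genes were those over 2-fold above 0 min at 45 min and past the limit below their 45 min value at 60 min. The class sets no condition on the other libraries, so the highest value need not lie at 45 min. Of 67 such genes, 8 were higher at 90 than at 75 min (11.9%) and 5 were lower (7.46%). The 8 were Tnf, Nfkbia, Tnfaip3, Dusp2, Map3k8, Eid3, Gm20199 and D830031N03Rik, and the 5 were Jun, Arc, Fosb, Ddit4 and Osgin1. Early peak genes therefore went both ways in the interval. Of 307 genes past the limit above their 45 min value at 60 min, 132 were also over 2-fold above 0 min at 60 min. Of these 132, 35 were higher at 90 min (26.5%) and only Trib1 and Arid5a were lower, with a median log2 ratio of 0.25. Of the other 10631 genes, which include the rest of the 307, 113 were higher (1.06%) and 72 lower (0.677%). With 50 reads required in both libraries, 7 of 66 early peak genes were higher and 5 lower, 31 of 125 of the second class (24.8%) were higher, and 76 of the other 10478 genes (0.725%) were higher. Relative to the 75 min value, the median of the 35 genes was 0.0864 in untreated cells, 0.543 at 60 min, 1.67 at 90 min and then 3.57.

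The 60 and 120 min libraries bracket the interval and share no library with it. From 60 to 120 min, 849 of the 10830 genes (7.84%) were higher and 929 (8.58%) were lower by the same limit. Of the 156 genes higher from 75 to 90 min, 105 were higher from 60 to 120 min, 4 were lower and 47 were within the limit, with a median log2 ratio of 1.08. Of the 79 lower genes, 63 were lower, 1 was higher and 15 were within it, with a median of -1.42. Among genes with a mean of at least 100 normalized counts, 87 of 106 and 53 of 59 had the same direction. By list, 7 of 8 CC chemokines, 4 of 5 CXC chemokines and 18 of 24 effector genes were higher from 60 to 120 min, and none was lower. Of 16 interleukins and interferons, 11 were higher and 1 lower, and of 24 interferon-stimulated genes, 10 were higher and 4 lower. Of the 24 immediate early transcription factors, 16 were lower and 2 higher. The extremes were Zfp811 and Il6, with log2 ratios of 6.66 and 6.40, and Nr4a1 and Jun, with -5.15 and -4.26. The 4 genes higher at 90 min but lower at 120 than at 60 min were A130049A11Rik, Cd28, Gm5512 and Sag, none above 223 normalized counts at 90 min, and the 1 of the opposite kind was Gm15760.

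**Figure D4:**
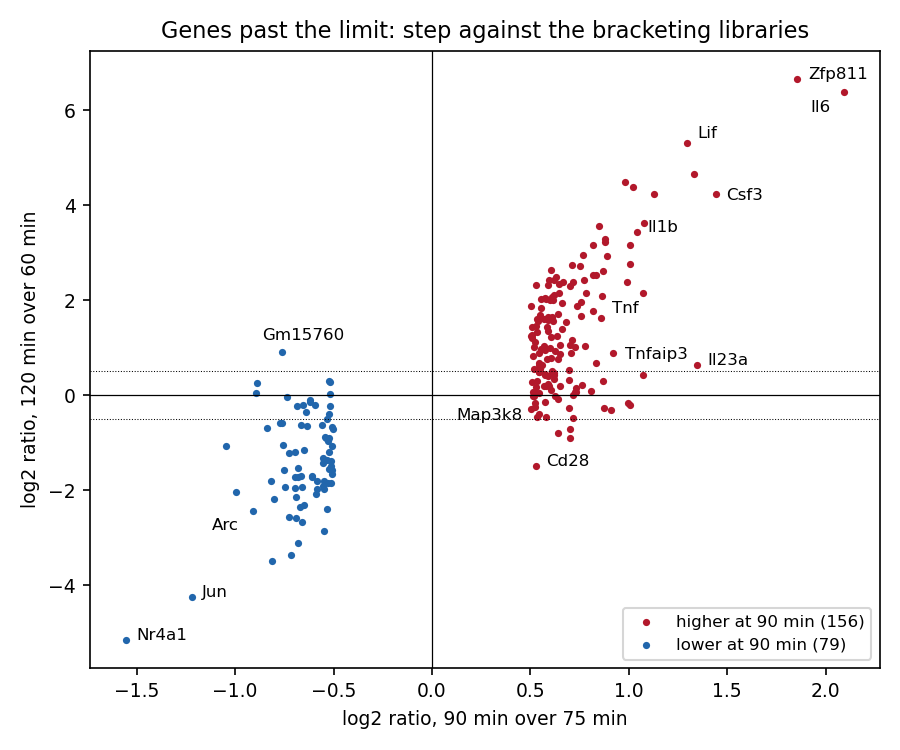
Log2 ratio of the 120 min over the 60 min library (vertical axis) against that of the 90 min over the 75 min library (horizontal axis) for the 156 genes higher (red) and 79 lower (blue) at 90 min, with dotted lines at 0.5 and -0.5. Most red points lie above the upper line (105) and most blue points below the lower line (63), with Il6 and Zfp811 at the upper right and Nr4a1 and Jun at the lower left.

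For a part of the genes the direction rested on the 75 min library. For 25 of the 156 higher genes, the 60 min value exceeded the 75 min value past the limit, so that 75 min was a low point, and 105 of the 156 were higher past the limit at 90 than at 60 min. Of the 79 lower genes, 7 had a 75 min value past the limit above that at 60 min, and 61 were lower at 90 than at 60 min. The highest of the 8 values lay at 120 min for 96 of the higher genes, and the lowest at 120 min for 55 of the lower ones. From 90 to 120 min, 63 of the higher genes were higher past the limit again and 9 were lower, while 35 of the lower genes were lower again and 3 were higher.

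By normalized counts gained, the interval was led by few transcripts. The 10 largest gains belonged to Tnf, Rpph1, Malat1, Irg1, Odc1, Eef1a1, Ccl3, Cxcl2, Nfkbia and Ccl4. Of these, Rpph1, the RNA of RNase P, Malat1 and the elongation factor gene Eef1a1 had log2 ratios of only 0.08, 0.24 and 0.04. Odc1, the first enzyme of polyamine synthesis, was just under the limit with 107900 and 147000 normalized counts (1.36-fold, 1.35 to 1.37). The 10 largest losses of normalized counts, apart from Rn45s with its log2 ratio of -0.45, belonged to Hspa8, Pkm, Actb, Actg1, Ncl, Eef2, Serinc3, Csf1r, Errfi1 and Nfkbiz. All 10 were within the limit.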

How the data were processed

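For 8 libraries the authors deposited unnormalized read counts of 23143 gene symbols in 1 table, in which every row names a gene and no column was left out. According to the methods, ribosomal RNA was depleted with Ribo-Zero, and 58-base reads were aligned with Bowtie (version not given in the sources used here) to the RefSeq transcripts of mm10 (refGene) with at most 2 mismatches, and reads hitting several gene symbols were discarded. The library kit is directional, but the strand setting of the counting is not given in the sources used here. The strand of the reads kept for overlapping genes is therefore not known. The submitters' processing notes name CASAVA 1.8.2 and DESeq 1.10.1. Spike-in transcripts were not used here.

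Counts were divided by median-of-ratios size factors computed from all 8 libraries (scipy 1.17.1, pandas 2.3.3 and numpy 2.4.6 in Python 3.11.15, figures with matplotlib 3.10.9). Genes with at least 50 counts at 75 or 90 min were compared, and a log2 ratio beyond 0.5 was the limit. With 1 library per time point, no residual degrees of freedom are left for edgeR's quasi-likelihood test, and no p-value is given. Ratios carry an exact conditional binomial 95% interval. Sequencing duplicates are not independent molecules, so the intervals cover counting error only. A count of 0 allows up to 3 counts, or 4.22 normalized counts at 75 min and 3.81 at 90 min. The ratio, interval and call scripts were tested on simulated data. Only genes with a mean of at least 100 normalized counts were changed there, and by far more than the limit. Changes close to the limit were not simulated.

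The members, lists and alternatives were chosen with earlier results of these data known. Named genes were Tnf, Il1a and Il1b, the 10 highest and 10 lowest ratios with a mean of at least 100 normalized counts and an interval outside 0, the 10 largest gains and losses, and in each list up to 4 members past the limit with the most normalized counts, or else 2 members. Genes named otherwise mark the ends of a list's range, are textbook members of a list or were chosen after their values were seen. Transcript lengths (22569 genes) and 3' UTRs (19056 genes) come from GENCODE vM21 (GRCm38), matched by RefSeq accession, and positions (23014 genes) and promoters from RefSeq (GRCm38.p6).

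Alternatives were scaling by total counts, by total counts without Rn45s, by TMM factors (R 4.3.3, edgeR 4.0.16) or by size factors of both libraries alone. Further alternatives were other count minimums, a log2 limit of 1, an interval outside 0, removal of the length trend and a pseudocount of 1. The 60 or 120 min library was also used as a replacement. A last alternative was an edgeR exact test between both libraries, with a trended dispersion fitted blindly over all libraries. It stands in for the study's DESeq rule, which was not run. The restriction to mRNA accessions, the counts by list with 50 reads in both libraries and the stricter κB-like motif were added after the data were seen.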

Additional observations from a re-analysis of the deposited data

How the results depend on the processing

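No paired analysis was possible because each time point has 1 library and the labels give no replicate numbers. The count of 156 higher genes was 149 to 217 under the 4 other scalings. The count of 79 lower genes was 78 to 88 under 3 of them and 48 with total counts. The count minimum moved both, to 454 higher and 285 lower genes with at least 10 counts and to 57 and 22 with at least 500. A log2 limit of 1 left 15 and 3, and the edgeR rule modelled on the study's, with a blindly fitted dispersion, left 13 and 4. That rule kept 11 of the higher and 4 of the lower named genes and ended the call of 27 and 7 others, among them Tnf, Cxcl2, Ccl3, Ccl4, Nfkbia, Ptgs2, Egr2, Isg15, Fosb and Fam53b. With the 60 min library in place of the 75 min library there were 499 and 524, and with the 120 min library in place of the 90 min library 662 and 647, over longer intervals. An interval outside 0, 50 counts in both libraries, the length trend and the restriction to mRNA accessions gave 114 to 155 higher and 63 to 76 lower genes. Of the 49 named genes past the limit, 47 to 49 stayed past it in the same direction under the other scalings, 43 with the 60 min library for the 75 min library and 47 with the 120 min library for the 90 min library. With the 60 min library, Map3k8 (-0.10) and Snora30 (-0.39) had the opposite sign, and the cause was not tested. Depth limits the genes under 100 normalized counts most, where the interquartile range of the log2 ratios was 0.434, against 0.0911 above 10000.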

Other observations

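Several groups outside the inflammatory response were also measured across the interval. Host transcripts of small nucleolar RNAs had a median log2 ratio of 0.32, with all 11 measured members above 0 and none past the limit of 0.5. Gas5 had 15420 normalized counts at 75 min and 21160 at 90 min, and Snhg1 had 3537 and 4703. From 60 to 120 min, 4 of the 11 were higher past the limit. The small nucleolar RNAs themselves, which guide ribosomal RNA modification, had 3 of 41 measured members above the limit (Snora30, Snora81 and Snord49b), none below it and a median of 0.17. Over all genes compared, 1.44% were above the limit. Snora30 and Snora81 reached 50 reads only at 90 min, and with 50 reads required in both libraries 1 of 39 was above the limit and the median was 0.16. All 3 were at low counts, with 47.9 and 78.7 normalized counts for Snora30 at 75 and 90 min, and Snora30 was lower at 120 than at 60 min by a log2 ratio of -0.47. In the same libraries the share of the ribosomal RNA precursor Rn45s was 20.5% and 15.8%, and its part in these values was not tested.

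None of the measured members of 5 housekeeping lists was past the limit. The median log2 ratio was 0.05 for 80 cytoplasmic ribosomal protein genes, 0.04 for 78 respiratory chain subunits, 0.04 for 38 proteasome subunits, 0.08 for 57 histone genes and -0.04 for 20 mitosis genes. The lowest value was -0.50 in a histone gene and the highest 0.41 in a respiratory chain subunit. Among their most abundant members the log2 ratio was 0.08 for Rpl4, 0.00 for Atp5a1, 0.01 for Psmd2, 0.05 for Hist2h2bb and -0.02 for Top2a. Of 582 microRNA genes in the table only 6 reached 50 reads, of which Mir17hg, the host of the miR-17 cluster, had 2811 and 3749 normalized counts. Nuclear-retained long RNAs were within the limit in 3 of 3 measured cases, with 0.24 for Malat1 and 0.19 for Kcnq1ot1.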
